A study of Mus musculus with 8 samples.

Results

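The long noncoding RNAs described here were 7 genes of the gonadotrope count table, taken by symbol from its 55523 entries. *Malat1*, *Neat1* and *Miat* give transcripts that stay in the nucleus, and *Snhg11*, *Snhg1*, *Snhg12* and *Gas5* give spliced transcripts whose introns carry small nucleolar RNAs (snoRNAs). The genes were chosen because of their levels in male replicate 1 relative to the other 7 samples. That contrast is therefore given as a description, without a test, while the difference between the sexes was tested in the samples without male replicate 1. The RNA came from EGFP-expressing cells sorted out of pituitaries of the Ad4BP-BAC-EGFP mouse line, with 4 samples from males and 4 from females. Ad4BP is another name of NR5A1, the nuclear receptor of pituitary gonadotropes, and the transgene is an artificial chromosome that marks these cells with EGFP. Every sample carried the transgene, and no treatment was given in the labels. The age and the number of animals per sample were not given in the sources used here, so p-values measure the spread between these samples. The study left male replicate 1 out of its own analysis.

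Nuclear-retained RNAs act where they are made. *Malat1* collects in nuclear speckles, which hold splicing factors, and *Neat1* is the scaffold of paraspeckles, bodies built from RNA-binding proteins. *Miat* (also called Gomafu) is a spliced RNA of neurons and related cells that also remains nuclear. The snoRNA-host genes follow another route, because their spliced RNA is exported and, for hosts such as *Gas5*, degraded during translation by nonsense-mediated decay. Their excised introns are trimmed to snoRNAs, which guide the chemical modification of ribosomal RNA.

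*Malat1* and *Neat1* lie near each other on chromosome 19. Their 3′ ends are shown because *Malat1* and the longest *Neat1* transcript end in the same kind of element, which replaces a conventional poly(A) tail. The other annotated *Neat1* transcripts are not covered by this. In the GRCm38 build with the GENCODE M21 annotation, *Malat1* (ENSMUSG00000092341.3) is a single exon on the minus strand at chr19:5795690-5802672. *Neat1* (ENSMUSG00000092274.3) is a single exon on the same strand at chr19:5824708-5845478, and 22035 bases separate both genes. The last 11 bases of the annotated *Neat1* transcript are AAAAAGCAAAA, and these letters, searched on the transcribed strand only, occurred 1 time in each RNA. They are in capitals in the following 90 bases of each RNA, from chr19:5795982-5796071 for *Malat1* and chr19:5824708-5824797 for *Neat1*, both read 5′ to 3′ on the minus strand.
Malat1: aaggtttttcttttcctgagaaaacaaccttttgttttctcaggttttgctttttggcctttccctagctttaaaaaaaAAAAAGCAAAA
Neat1: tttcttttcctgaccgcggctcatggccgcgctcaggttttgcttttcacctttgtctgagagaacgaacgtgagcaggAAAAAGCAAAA
The annotated *Neat1* transcript has 20771 bases, whereas the *Malat1* transcript of 6983 bases continued for 292 bases beyond these letters. The same letters were found in 618 of 141767 annotated transcripts (0.436%). In *Miat* (ENSMUSG00000097767.8, minus strand, chr5:112213228-112229395), the letters shown are TACTAAC, which mark the repeats known from this RNA. They occurred 6 times on the transcribed strand of the transcript Miat-205 of 9163 bases. Its bases 5585 to 5633, from 1 exon at chr5:112216758-112216806, hold 3 of them.
Miat: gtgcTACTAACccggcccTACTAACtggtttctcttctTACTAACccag
Of 7040 annotated transcripts of at least 5000 bases, 3 (0.0426%) held at least 6 copies, and these were a pair of *Miat* transcripts and 1 of *Slc8a1*.

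The snoRNA-host genes are shown by their first bases, because several hosts are known to start with a run of pyrimidines (C or T), the mark of RNAs whose translation follows growth signals. *Gas5* (ENSMUSG00000053332.13) lies at chr1:161034422-161038539, *Snhg12* (ENSMUSG00000086290.9) at chr4:132308623-132311024, *Snhg1* (ENSMUSG00000108414.1) at chr19:8723475-8726443 and *Snhg11* (ENSMUSG00000044349.15) at chr2:158375638-158386145, all on the plus strand. GENCODE M21 lists *Snhg11* as protein-coding, and its counts stand in that class in the shares by class. The first 30 bases after the RefSeq start (GRCm38.p6) follow, with the leading pyrimidines in capitals, from chr1:161035166-161035195, chr4:132308678-132308707, chr19:8723487-8723516 and chr2:158375713-158375742 in the order of the lines.
Gas5: CTTTCggagctgtgcggcattctgagcagg
Snhg12: TTTCTCgcttcatccgcggtccctgtctgt
Snhg1: CTCatttttccttgttcggggtaagtactc
Snhg11: actcacgcactcagcctgctaggcaagtca
The leading run was 5 bases in *Gas5*, 6 in *Snhg12*, 3 in *Snhg1* and 0 in *Snhg11*. A run of at least 5 was present at 4.44% of 32851 annotated starts and a run of at least 3 at 10.7%. *Gas5* also has another RefSeq start, without a leading pyrimidine. Among the nuclear-retained genes, the start of *Miat* has a run of 6 bases, present at 2.93% of starts, and that of *Malat1* has 1. *Neat1* had no entry among these starts.

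Excised from the introns of the hosts are C/D-box snoRNAs, beside H/ACA-box snoRNAs such as *Snora16a*, *Snora44* and *Snora61* in *Snhg12*. Of the C/D-box class 3 are shown, with the C box (TGATGA) and the D box (CTGA) in capitals. These are examples of the product for which the hosts are named. They lie on the plus strand at chr1:161038082-161038158, chr1:161037601-161037681 and chr4:132310691-132310764 in GENCODE M21.
Snord47 in Gas5: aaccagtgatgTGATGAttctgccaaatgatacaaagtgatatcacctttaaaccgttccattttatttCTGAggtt
Snord80 in Gas5: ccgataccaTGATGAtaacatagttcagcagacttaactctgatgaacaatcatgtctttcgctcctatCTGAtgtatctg
Snord99 in Snhg12: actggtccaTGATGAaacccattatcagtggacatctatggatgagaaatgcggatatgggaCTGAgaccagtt
The annotation places 9 small RNA genes inside *Gas5*, 8 inside *Snhg1*, 4 inside *Snhg12* and 2 inside *Snhg11*. The table holds 22 of these as entries of their own, and 19 of the 22 had at most 2 counts in every sample. Together they held 270 counts over the 8 samples, against 12146 counts on the 4 hosts. *Snord80* had the most, with 2 to 16 counts per sample. *Snord47* and *Snord99* were at 1 count in every sample, as 8 of the 22 entries were at a constant value, so their entries carry no information on differences. The levels that follow are therefore levels of the host transcripts, not of their snoRNAs.

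The total count per sample was between 18774578 and 31302588, and 3 counts, taken as the smallest detectable level, corresponded to 0.0918 to 0.147 CPM, the count scaled by a library total that edgeR adjusts for composition (TMM). This floor covers counting error only. *Xist* had 214 to 417 CPM among the females, at most 1.20 CPM among male replicates 2 to 4, and 3.69 CPM for male replicate 1. *Ddx3y* had at most 0.367 CPM among the females and at least 151 CPM among the males. Of 6 gonadotrope markers, male replicate 1 was above all other samples for 0, below for 3 (*Nr5a1*, *Cga* and *Gnrhr*) and inside for 3 (all genes: 21.5% above, 19.2% below). *Nr5a1* was at 16.4 CPM against 590 to 1263 CPM, whereas *Lhb* and *Foxl2* were at 1.44 and 1.32 times the mean of the others and *Fshb* at 0.454 times. For male replicate 1 the summed level of the 6 was 28689 CPM. It ran from 67457 to 76505 CPM among male replicates 2 to 4 and from 21633 to 34846 CPM among females, and none of the 6 was at 0 in any group. Somatotrope markers (*Gh* and 2 others), which are not gonadotrope genes, summed to between 12435 and 143859 CPM in the 8 samples. In such bulk samples fewer cells of a type and less RNA per cell cannot be told apart.

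*Malat1* was among the most abundant RNAs of every sample. Female replicates 1 to 4 had 13471, 12263, 12187 and 15186 CPM. Male replicates 2 to 4 had 7680, 9921 and 9643 CPM, and male replicate 1 had 110721 CPM. The male replicates 2 to 4 were thus all below the females, and male replicate 1 was above all of them. *Malat1* alone took 11.1% of all counts of male replicate 1 (95% Wilson interval 11.09% to 11.11%, counting error only), compared with 1.27% to 1.59% among females and 0.706% to 0.925% among male replicates 2 to 4. It ranked first among all genes in male replicate 1 and between 2nd and 11th in the others. The level in male replicate 1 was 9.65 times the mean of the other 7 samples (11479 ± 2551 CPM, SD, n = 7) and 7.29 times the highest of them.

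*Neat1* had the same place in male replicate 1 at a far lower level. Female replicates 1 to 4 had 77.5, 30.03, 34.7 and 34.3 CPM, and male replicates 2 to 4 had 28.9, 40.7 and 38.5 CPM. Male replicate 1 had 361 CPM, from 8223 counts. Among the other samples female replicate 1 was the highest, and the remaining females, from 30.03 to 34.7 CPM, lay inside the range of male replicates 2 to 4. The ratio of male replicate 1 to the mean of the other 7 was 8.88 (mean 40.7 ± 16.8 CPM, SD), and to the next sample it was 4.66. As *Malat1* and *Neat1* were high together, *Neat1* was at 0.326% of the *Malat1* level in male replicate 1, inside the range of 0.226% to 0.575% in the other samples. In the order of that ratio over 19587 genes, *Malat1* was 17th and *Neat1* 18th.

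*Miat* was the least abundant of the nuclear-retained RNAs. Female replicates 1 to 4 had 2.01, 4.27, 2.20 and 6.45 CPM. Male replicates 2 to 4 had 5.09, 4.95 and 10.4 CPM, with 13.7 CPM for male replicate 1. Male replicate 1 was again the highest, but only 1.32 times male replicate 4, and the other samples spread over a 5.17-fold range. It was 2.71 times the mean of the other 7. The counts behind these values were between 47 and 312 per sample.

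**Figure D1:**
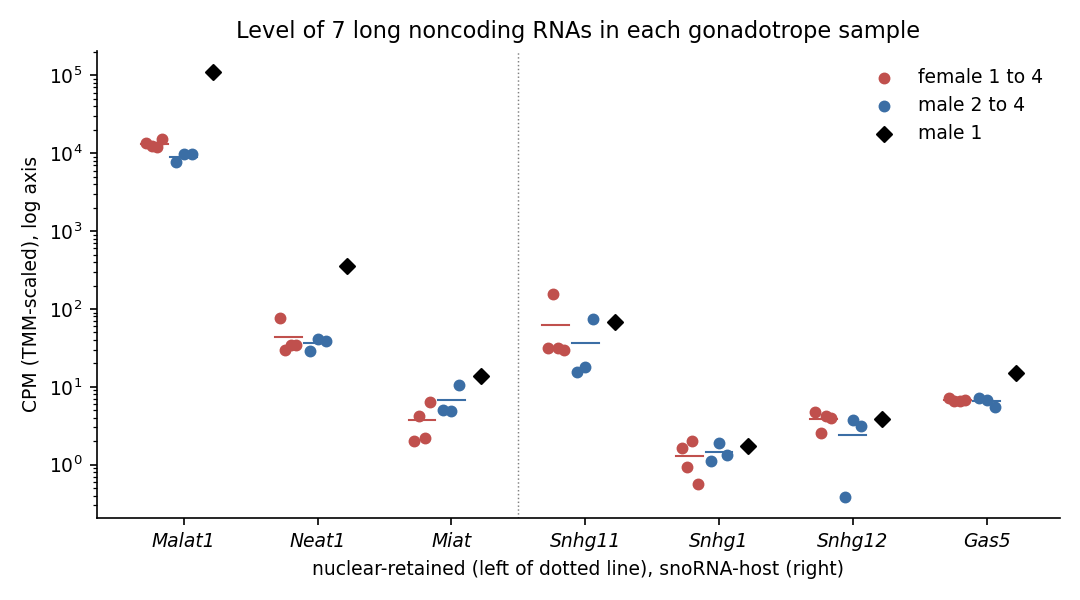
Level of the 7 RNAs in each sample in CPM on a log axis, with females in red, male replicates 2 to 4 in blue, male replicate 1 as a black diamond, and short lines at the group means. Male replicate 1 is above every other sample for *Malat1*, *Neat1*, *Miat* and *Gas5* and inside their range for *Snhg11*, *Snhg1* and *Snhg12*.

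The snoRNA-host genes showed no common pattern over the samples. *Snhg11*, a host best known from neurons, had 31.8, 154.5, 31.9 and 30.1 CPM across female replicates 1 to 4 and 15.3, 17.8 and 75.4 CPM across male replicates 2 to 4. The level of 68.3 CPM for male replicate 1 was the 3rd highest of the 8. Female replicate 2 and male replicate 4 were high, so that the highest of the 7 samples was 10.1 times the lowest. The markers of lactotropes, the prolactin cells, also had their highest sums in female replicate 2 (18257 CPM) and male replicate 4 (15874 CPM), but only 1660 CPM in male replicate 1. The corticotrope and melanotrope markers had their highest sums in the same pair of samples (22218 and 28935 CPM), with 18898 CPM for male replicate 1. These sums are almost all *Prl* and *Pomc*, with 1631 and 18839 CPM in male replicate 1. *Drd2*, the other lactotrope marker, had 28.8 CPM there, inside the range of the other samples (7.93 to 36.9 CPM). The part of these cells in the level of *Snhg11* was not tested.

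*Snhg1* and *Snhg12* were low. *Snhg1*, the host of a cluster of box C/D snoRNAs, had 1.63, 0.932, 2.02 and 0.563 CPM across the females and 1.71, 1.13, 1.91 and 1.33 CPM across the males. These values rest on 13 to 66 counts, and the groups overlapped throughout. *Snhg12* had 4.71, 2.55, 4.22 and 4.03 CPM across the females and 3.91, 0.389, 3.71 and 3.16 CPM across the males, each in the order of replicates 1 to 4. Male replicate 2, with 10 counts, was far below the other samples, which had 52 to 138 counts. In male replicate 1, *Snhg11*, *Snhg1* and *Snhg12* were 1.34, 1.26 and 1.20 times the mean of the other 7, each inside their range.

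*Gas5* was nearly constant outside male replicate 1. It had 7.11, 6.53, 6.61 and 6.80 CPM across female replicates 1 to 4 and 7.23, 6.86 and 5.50 CPM across male replicates 2 to 4, with a coefficient of variation of 8.53% over these 7 samples. In male replicate 1 it was 15.2 CPM, which is 2.29 times their mean and 2.11 times the highest. The counts were 347 in male replicate 1 and 120 to 216 in the others. Of the 7 RNAs it was the one with the smallest spread, and *Snhg11* the one with the largest, at 97.7%.

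As to the question of nuclear-retained against snoRNA-host transcripts, male replicate 1 was above all other samples for 3 of the 3 nuclear-retained RNAs and for 1 of the 4 hosts. Over all genes, male replicate 1 was above all other samples for 21.5% of 19587 genes and below them for 19.2%, and the 7 genes were chosen on this contrast, so nothing is read from these counts. It was at least 2 times the mean of the other 7 for the same 4 RNAs, and for 11.3% of all genes, with 9.79% meeting both conditions. The mean of log2(CPM + 1), centred on the 7 samples without male replicate 1, was 2.64 for the nuclear-retained RNAs in male replicate 1 and 0.62 for the hosts, a difference of 2.01. In the other samples the same difference lay between -0.50 and 0.42. The genes were chosen on this contrast and the values are centred on the other 7 samples, so nothing is read from this gap either. *Miat* and *Gas5* were nearer to each other than to the rest of their classes, with log2 ratios of 1.44 and 1.19, against 3.27 and 3.15 for *Malat1* and *Neat1* and 0.27 to 0.42 for the other 3 hosts. The place of each of the 7 RNAs in male replicate 1 was the same with CPM from library size only, from DESeq2 size factors and from library sizes without *Malat1*.

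**Figure D2:**
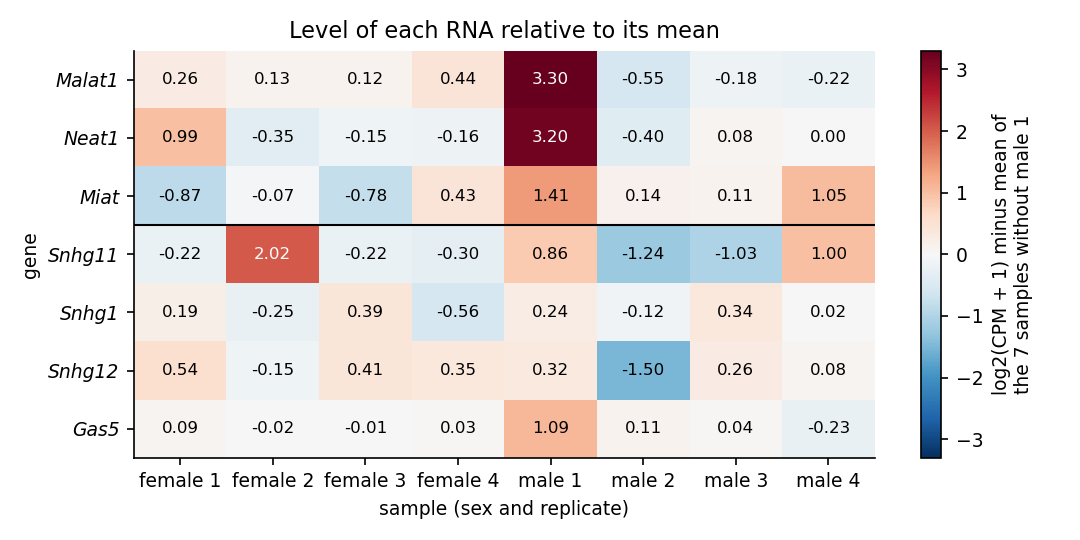
Each cell gives log2(CPM + 1) of 1 RNA (row) in 1 sample (column) minus its mean over the 7 samples without male replicate 1, in red where higher and in blue where lower. The column of male replicate 1 stands out for *Malat1* and *Neat1*, then for *Miat* and *Gas5*, while *Snhg11* is highest in female replicate 2 and *Snhg12* lowest in male replicate 2.

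The difference between the sexes was tested over all genes in male replicates 2 to 4 and female replicates 1 to 4, and none of the 7 RNAs passed the test. With edgeR's quasi-likelihood test and a Benjamini-Hochberg adjusted p under 0.05, 471 of 20152 genes differed (2.34%). The males had the higher level for 198 of these (0.983%) and the females for 273 (1.35%). At an unadjusted p under 0.05 there was 1 of the 7 RNAs and 19.9% of all genes. DESeq2 called 1 of the 7 RNAs and 11.6% of all genes.

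*Malat1* was the RNA nearest to the threshold. Its mean was 9082 ± 1222 CPM (SD, n = 3) in males and 13277 ± 1402 CPM (n = 4) in females, and the log2 fold change, male minus female, was -0.57 (SE 0.15) with an adjusted p of 0.0938 in edgeR. The samples of both sexes did not overlap, which held for 22.5% of all genes, and all males were below all females for 10.9%. The two-sided exact permutation test gave p = 0.0286, the smallest that the 35 splits of 3 against 4 samples allow. DESeq2 gave a log2 fold change of -0.56 with an adjusted p of 0.0162, and edgeR with library size only gave -0.78 with 0.0405, so the call depends on the tool and the scaling. Over all 16 alternatives the adjusted p was between 0.0162 and 0.681. With male replicate 1 among the males, the log2 fold change turned to 1.38 (edgeR, adjusted p = 0.681). The marker sums of gonadotropes (given above), somatotropes (64531 to 143859 CPM for these males, 12435 to 58249 CPM for the females) and thyrotropes (236 to 340 CPM and 21.5 to 85.0 CPM) also did not overlap between the sexes. *Fshb* and *Cga* make up most of the gonadotrope sum, and *Nr5a1* (713 CPM for these males, 1069 CPM for the females) and *Foxl2* (49.5 and 94.8 CPM) had the opposite direction in their means. Pituitary stem cell markers summed to 168 to 207 CPM for these males and to 299 to 479 CPM for the females, and stromal markers to 101 to 110 CPM and 112 to 163 CPM, also without overlap. Their part in the level of *Malat1* was not tested.

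For the other 6 RNAs the samples of both sexes overlapped. *Neat1* was 36.0 ± 6.28 CPM (SD, n = 3) in males and 44.1 ± 22.3 CPM (n = 4) in females, a log2 fold change of -0.31 (SE 0.36, edgeR adjusted p = 0.707). Without female replicate 1 it was 0.12, so its direction rests on that sample. *Miat* had a log2 fold change of 0.84 (SE 0.50, edgeR adjusted p = 0.414), and *Snhg12* one of -0.70 (SE 0.66, adjusted p = 0.634). *Snhg11* had -0.81 with an SE of 0.85 (edgeR adjusted p = 0.674), and without female replicate 2 the value was 0.22. *Snhg1* had 0.16 (SE 0.51) and *Gas5* had -0.07 (SE 0.17), with edgeR adjusted p of 0.913 and 0.870. The interval of 2 SE around the difference ran from -0.42 to 0.27 for *Gas5*, the narrowest of these 6, and from -2.51 to 0.89 for *Snhg11*, the widest. For each of these RNAs except *Gas5* the interval reached beyond a 2-fold difference in at least 1 direction, so a difference of that size remains possible at this number of samples.

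**Figure D3:**
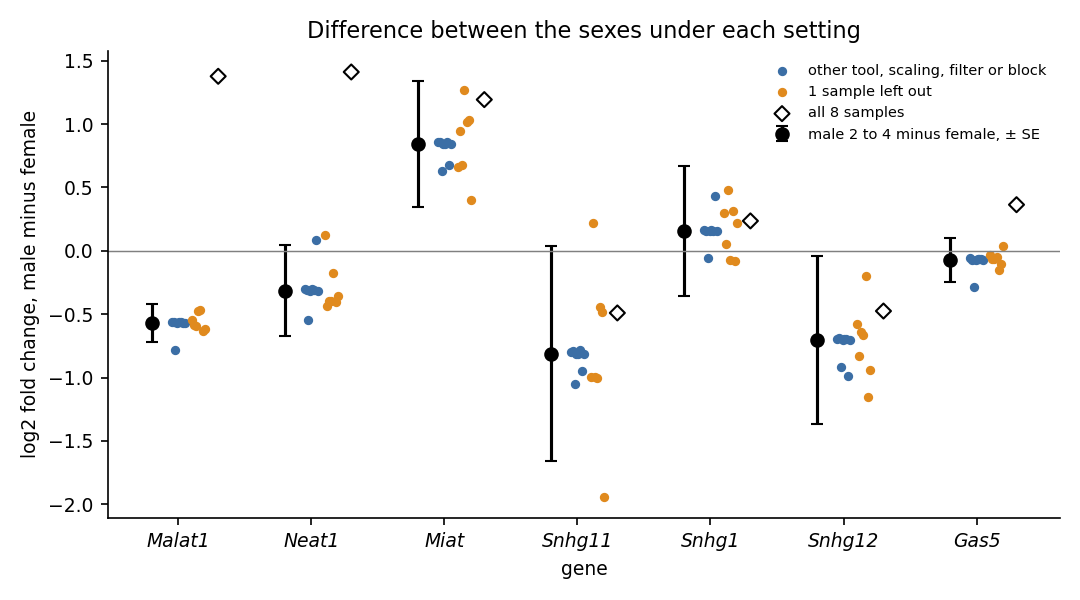
Log2 fold change between male replicates 2 to 4 and the females for each RNA (black, with the SE), under other tools, scalings, filters or the replicate block (blue), with 1 sample left out (orange) and with all 8 samples (open diamonds). *Malat1* stays below 0 unless male replicate 1 is included, where it is 1.38, and *Snhg11* moves most when 1 sample is left out.

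The levels were compared between the RNAs per kilobase of the longest annotated transcript without a retained intron, as the mean CPM per kilobase of the 7 samples without male replicate 1. *Malat1* was highest by far, at 1644 CPM per kilobase. *Gas5* followed at 10.02 and *Snhg11* at 8.69, and these neighbours did not differ beyond their spread, since the samples of *Snhg11* ran from 2.60 to 26.3 and those of *Gas5* from 8.28 to 10.9. *Snhg12*, *Neat1* and *Snhg1* were at 2.12, 1.96 and 1.92 CPM per kilobase with overlapping samples. *Miat* was at 0.552, with samples from 0.220 to 1.14 that overlapped those of *Snhg12* (0.253 to 3.06) and *Snhg1* (0.794 to 2.85). On this scale *Gas5* was above *Neat1* without overlap, although its CPM is lower. The order depends on the length chosen. With the length covered by any annotated exon, which counts the retained introns of *Gas5* and *Snhg1*, *Snhg11* was at 5.98, *Gas5* at 1.77 and *Snhg1* at 0.458, below *Miat* at 0.544, and *Neat1* was at 1.96. *Neat1* and *Gas5* then did not differ beyond their spread, with samples from 1.39 to 3.73 and from 1.46 to 1.92, and without female replicate 1 their means were 1.66 and 1.75. For *Neat1* both lengths are the full 20771 bases, while 4 transcripts are annotated. If shorter ones gave part of its counts, its level per kilobase is understated, which was not tested.

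Other long noncoding RNAs known to act or remain in the nucleus were examined in a list of 16 genes, of which 15 passed the filter on low counts and *Pantr1* was listed at 0 in all samples. Male replicate 1 was above all other samples for 9 of the 15, below them for 1 and inside their range for 5 (all genes: 21.5% above, 19.2% below), with a median log2 ratio of 0.60 against -0.02 over all genes. *Meg3*, an imprinted RNA and the most abundant of the list, had 874 CPM there, compared with 157 to 350 CPM elsewhere. *Mirg*, from the same imprinted cluster, had the largest ratio of the list, with 84.9 CPM against 7.46 to 28.6 CPM, or 4.88 times the mean. *Pvt1*, the RNA gene beside *Myc*, had the smallest, with 0.571 CPM against 1.20 to 5.37 CPM. *Rian* and *Kcnq1ot1* were also above the range, at 1.79 and 1.71 times the mean, whereas *Tug1* (0.735 times) was inside it. The list summed to 1877 CPM for male replicate 1 and to 764 to 1052 CPM for the others. None of these RNAs passed the test between the sexes.

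The protein genes of both nuclear bodies were examined in the same way, and their tallies are to be set beside 21.5% of all genes above and 19.2% below. Of 16 paraspeckle protein genes, 3 were above all other samples in male replicate 1, 4 below and 9 inside, with a median log2 ratio of -0.12. *Hnrnpk*, the most abundant, had 308 CPM there, compared with 137 to 851 CPM elsewhere. *Hnrnph3* had the largest ratio of this list, 1.61, and *Rbm14* the smallest, 0.0415, with 0.571 CPM against 0.943 to 36.9 CPM. Of 19 speckle genes, which encode splicing factors and their partners, 10 were above, 2 below and 7 inside, with a median of 0.30 and a sum of 2930 CPM, where the other samples ranged from 1994 to 2357 CPM. *Son*, a large scaffold protein of speckles and the most abundant, had 511 CPM there, compared with 122 to 374 CPM elsewhere, and *Ccnl1*, a cyclin of speckles, had the largest ratio, 3.21. *Srsf3* had the smallest, 0.451, and *Srsf1*, a further splicing factor, was listed at 0 in all samples and not counted. A list of 14 transcripts that keep introns in the nucleus had 4 above, 1 below and 9 inside, with a median of -0.03. In it *Ddx5* was the most abundant and inside the range, *Clk4* had the largest ratio, 2.65, and *Mat2a* the smallest, 0.373. No gene of these lists passed the test between the sexes.

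Other snoRNA-host RNAs were examined in a list of 17 genes, of which 14 had an entry, and 15 entries passed the filter because *Snhg14* has several. Male replicate 1 was above all other samples for 5 of the 15 entries, below for 1 and inside for 9 (all genes: 21.5% above, 19.2% below), with a median log2 ratio of 0.01. The most abundant, *Snhg20*, had 190 CPM there, compared with 89.1 to 124 CPM elsewhere. *Snhg8* (1.41 times the mean) and *Snhg10* (1.27 times) were also above, and *Snhg5* (0.714 times) was below. An entry of *Snhg14* had the largest ratio, 2.56, and *Snhg3* the smallest, 0.331, from 0.659 CPM against 0.0866 to 5.36 CPM. None passed the test between the sexes, and another entry of *Snhg14* was nearest to it, with a log2 fold change of -1.31 (SE 0.28, edgeR adjusted p = 0.0609).

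The proteins that bind and assemble snoRNAs were examined in a list of 17 genes. In male replicate 1, 0 were above all other samples, 8 below and 9 inside, where 21.5% of all genes were above and 19.2% below, and the median log2 ratio was -0.28 against -0.02 over all genes. *Snu13*, a protein that binds box C/D snoRNAs and the most abundant of the list, had 118 CPM there, compared with 165 to 244 CPM elsewhere. *Gar1*, of the box H/ACA particles, had the largest ratio, 1.43, inside the range, and *Shq1*, an assembly factor, the smallest, 0.353. *Ncl*, the nucleolar protein nucleolin, was 75.0 CPM against 104 to 240 CPM. The list summed to 703 CPM for male replicate 1 and to 898 to 1068 CPM for the others. Of the 17 genes none passed the test between the sexes.

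Among the pathways that remove such RNAs, 9 of 17 genes of nonsense-mediated decay were above all other samples in male replicate 1, 3 were below and 5 inside (all genes: 21.5% above, 19.2% below), with a median log2 ratio of 0.26. With library size only, 6 of the 17 were above. *Smg5*, an adaptor that recruits decay enzymes, had the largest ratio, 1.95, with 48.3 CPM against 16.7 to 34.8 CPM. *Smg8*, a regulator of the kinase SMG1, had the smallest, 0.489. Of 16 genes of the nuclear exosome, which degrades nuclear RNA from its 3′ end, 3 were above, 5 below and 8 inside, with a median of -0.15. *C1d*, the most abundant, was 70.0 CPM against 109 to 186 CPM, *Exosc10*, the nuclear catalytic subunit, had the largest ratio, 1.66, and *Exosc7* the smallest, 0.409. None of these genes passed the test between the sexes.

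**Figure D4:**
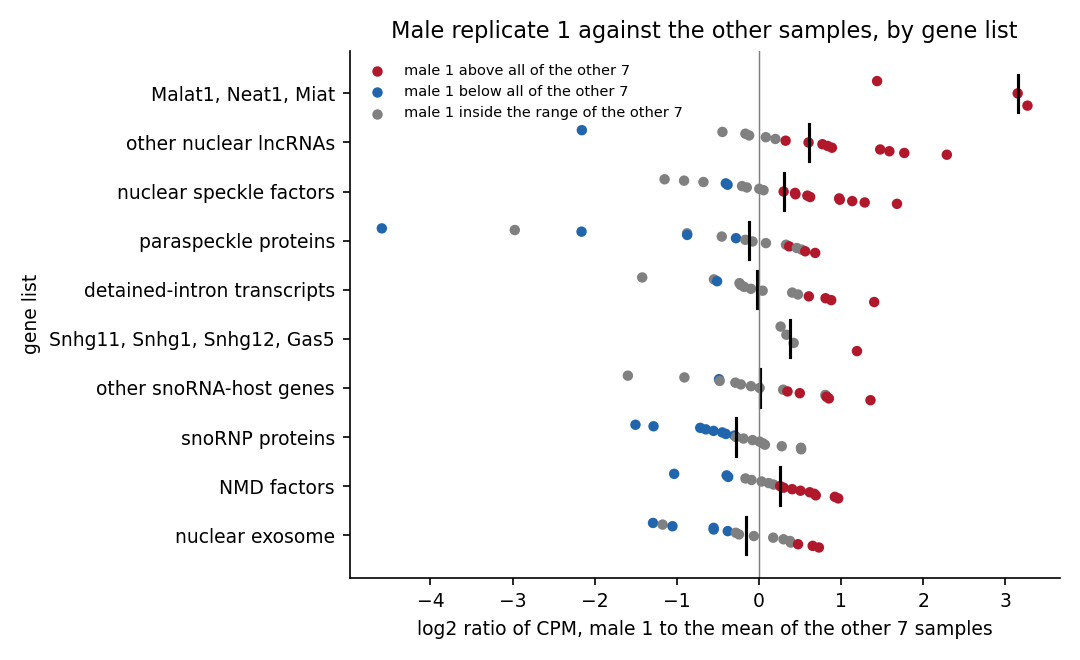
Log2 ratio of CPM in male replicate 1 to the mean of the other 7 samples for each gene of each list, with the list median as a black line, and with genes above all other samples in red, below all in blue and inside their range in grey. The medians are 0.60 for other nuclear noncoding RNAs, 0.01 for other snoRNA-host genes and -0.28 for snoRNP proteins, and *Malat1* and *Neat1* lie to the right of every gene of the other lists.

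As *Malat1* and *Neat1* are neighbours, the 21 further genes with enough counts within 200 kb of the pair were examined. Male replicate 1 was above all other samples for 9 of them, below for 1 and inside for 11, where 21.5% of all genes were above and 19.2% below. Their median ratio to the mean of the other 7 was 1.21, and the median log2 ratio of all genes was -0.02. The ratios lay between 0.427 for *Sssca1* and 3.33 for *Ltbp3*, a binding protein of latent TGF-beta, so none reached those of *Malat1* and *Neat1*. None of the 21 passed the test between the sexes. The library kit does not mark the strand, and the annotation has *Gm37376* opposite *Malat1*, *Gm26953* opposite *Miat* and *Zbtb37* opposite part of *Gas5*, so reads of these pairs cannot be told apart where they overlap.

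**Figure D5:**
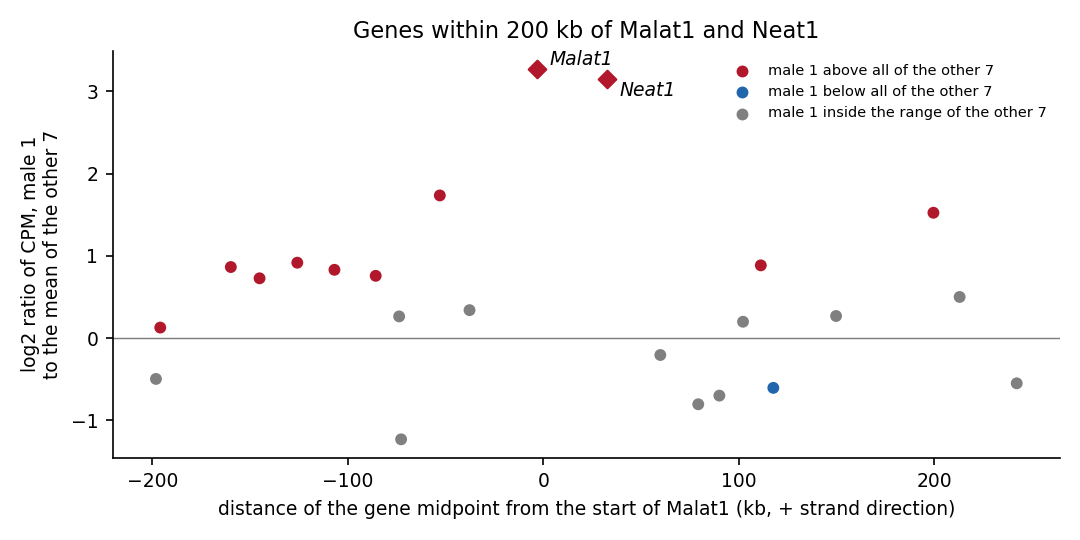
Log2 ratio of CPM in male replicate 1 to the mean of the other 7 samples for genes near *Malat1* and *Neat1*, against the distance of the gene midpoint from the start of *Malat1* in kb. *Malat1* and *Neat1* (diamonds) are at 3.27 and 3.15, and the next highest gene, *Ltbp3*, is at 1.74 on the same log2 scale.

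The genes with the pattern most like that of *Malat1* over the 8 samples were found by the root mean square difference of centred log2(CPM + 1) among 10521 genes with a mean of at least 10 CPM. The nearest to *Malat1* was *Neat1*, with a difference of 0.41, followed by the pseudogene *Gm17971* (0.43) and *Sbno2* (0.47). The nearest to *Neat1* was the noncoding RNA *Gm26700* (0.39), at 52.8 CPM for male replicate 1 and 4.16 to 12.3 CPM elsewhere, followed by *Malat1* (0.41) and *Ddx54* (0.44). *Gas5* had closer neighbours, *Notch1* at 0.10, *Zmym3* at 0.12 and *Gm37829* at 0.12, each at 1.79 to 1.96 times the mean of the others in male replicate 1. *Snhg11* had none as close, its nearest being *Grcc10* at 0.51, *Prelid1* at 0.57 and *Zfp90* at 0.59. These are descriptions over 8 samples, in which male replicate 1 weighs heavily.

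Other classes of transcripts were compared as shares of the total without *Malat1*, since its own share lowers all others. On this scale long intergenic RNAs made up 2.17% of male replicate 1, compared with 1.10% to 1.83% elsewhere, and transcripts annotated inside introns 0.0659%, compared with 0.0363% to 0.0508%. Antisense RNAs made up 0.541%, compared with 0.378% to 0.498%, but with *Malat1* in the total their share of 0.481% was inside the range of the others. The entries annotated as snoRNAs made up 0.00944%, compared with 0.00366% to 0.00608%. Low counts may include values added by the counting, so this share is not read as a level of snoRNAs. Protein-coding genes made up 90.9%, compared with 91.8% to 93.8%. Of 5 endothelial markers 3 were above all other samples, 1 below (*Emcn*, 17.5 CPM against 47.2 to 84.1 CPM) and 1 inside (all genes: 21.5% above, 19.2% below). *Kdr* and *Plvap* make up most of the sum, which was 693 CPM against 409 to 549 CPM, with none of the 5 at 0. All 4 globin genes were below the other samples, as were 19.2% of all genes, with a sum of 49.9 CPM against 80.2 to 578 CPM. The part of these shares and cells in the levels of *Malat1*, *Neat1*, *Miat* and *Gas5* was not tested.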

How the data were processed

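Total RNA of sorted EGFP-positive cells was made into libraries with a low-input kit that does not mark strand and sequenced as paired ends. The authors deposited unnormalized counts per gene in 1 table for the 8 samples. According to the labels and the study's methods they used cutadapt, STAR with mm10 (GRCm38) and featureCounts with default parameters. Of the 55523 entries, 28933 are named by an MSTRG locus, a form given by StringTie, which these sources do not mention, and 121 have a constant value above 0 in all 8 samples, so low counts may include values added by the counting. All 7 RNAs are at such loci, which they share only with entries of 22 snoRNAs and 8 other small RNAs.

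Counts were scaled to CPM (the count divided by the scaled library total) with TMM factors in edgeR 4.0.16 over the 8 samples. The sexes were compared without male replicate 1 (3 males, 4 females) by edgeR's quasi-likelihood test after filterByExpr, with a threshold of 0.05 on the Benjamini-Hochberg adjusted p, and by a two-sided exact permutation test for each RNA on mean log2(CPM + 1). DESeq2 1.42.0 (R 4.3.3) and the other settings of the closing section were alternatives. Python 3.11.15 with pandas 2.3.3 was used for the rest. Levels per kilobase used GENCODE M21. Counts of this comparison were also simulated, with a log2 fold change of 3, up or down, in the changed genes. The test recovered 68.9% of 193 such genes among 19377, with 5% of its calls false. That size is above the difference found for any RNA described here, so the recovery of smaller differences is not given. The RNAs, the gene lists and the settings were chosen with earlier results of these data known. For each list, the most abundant gene and those with the largest and smallest ratio in male replicate 1 are named, beside other genes of the list, chosen after their values were seen. Some genes under this rule are not reported here. Other entries and the whole pituitary samples were not used here.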

Additional observations from a re-analysis of the deposited data

Results flagged for a closer look

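Each RNA was examined within each sex for a sample far from the other 3, judged by its gap to the nearest sample relative to the whole range. Chance alone marks about 1 in 20 such sets, but every male set includes male replicate 1, on which the RNAs were chosen, so the number of marked sets is not read against that rate. *Malat1* was 110721 CPM in male replicate 1, and the other males were between 7680 and 9921 CPM. *Neat1* had 361 CPM there, while male replicates 2 to 4 ranged from 28.9 to 40.7 CPM. For female replicate 1, *Neat1* stood at 77.5 CPM, while the other females ranged from 30.03 to 34.7 CPM. For female replicate 2, *Snhg11* stood at 154.5 CPM, while the other females ranged from 30.1 to 31.9 CPM.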

How the results depend on the processing

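The number of genes that differed between the sexes, 471 in edgeR, was 2329 with DESeq2, 806 with library size only, 177 without a filter beyond 1 count and 67 with all 8 samples. Each of the 7 samples mattered to it, as leaving out 1 of them gave 88 to 171. With library size only, 133 genes were higher in males and 673 in females, against 198 and 273, and the median over all genes shifted to a log2 fold change of -0.24, so that *Malat1*, at -0.78, is to be read relative to it. Of the 7 RNAs, 0 passed the threshold in edgeR (1 at an unadjusted p under 0.05), and 1, *Malat1*, did with DESeq2 (-0.56) and with library size only (-0.78). Directions turned in *Snhg1* with library size only (-0.059) and, with all 8 samples, in *Malat1* (1.38), *Neat1* (1.41) and *Gas5* (0.36), without a call. With the replicate number as a block, *Neat1* was 0.087, and 0 genes passed in edgeR, with 2954 of 20152 at an unadjusted p under 0.05. The same numbers did not pair the samples, as the correlations of their deviations were -0.03, -0.01 and 0.00, so the block says little. Leaving out 1 sample gave log2 fold changes of -0.64 to -0.46 for *Malat1*, -0.44 to 0.12 for *Neat1*, 0.40 to 1.27 for *Miat*, -1.94 to 0.22 for *Snhg11*, -0.084 to 0.48 for *Snhg1*, -1.15 to -0.20 for *Snhg12* and -0.15 to 0.038 for *Gas5*, and 0 of the 7 passed each time. Male replicate 1 had 12.2 times the *Malat1* level of the other 3 males, and the other ratios moved by less than the spread between samples. The mean level with male replicate 1 included was 23884 CPM for *Malat1*, 80.7 CPM for *Neat1* and 7.73 CPM for *Gas5*. The causes of these shifts were not tested. The lowest counts in a sample were 10 for *Snhg12*, 13 for *Snhg1* and 47 for *Miat*. The exon length, the totals without *Malat1* and the scalings for the gene lists were added after the data were seen.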
